A study of Mus musculus with 16 samples.

Results

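A set of 10 genes of the Nrf2 antioxidant programme were followed in mouse liver after 4 weeks of carbon tetrachloride (CCl4): the transcription factor gene Nfe2l2 and the targets Gclc, Gclm, Gsr, Slc7a11, Txnrd1, Srxn1, Nqo1, Hmox1 and Me1. The 10 genes were chosen by name, as array probes carrying these symbols, with the brightest probe of each symbol taken. Of the 10, 9 could be tested, out of 24363 genes tested in all. Liver RNA was measured on 16 one-colour arrays, 1 array per sample, from male BALB/c mice (an inbred strain) that entered the study at 6 to 8 weeks of age. The 4 groups were wild type (WT) control (n = 4), Lcn2-/- control (n = 3), WT CCl4 (n = 5) and Lcn2-/- CCl4 (n = 4). CCl4 is a solvent that hepatocytes turn into a reactive radical, and it was injected intraperitoneally at 0.5 ml/kg, 2 times a week, with control mice on the corn oil that carried it. Livers were collected 48 h after the last dose. Lcn2 encodes lipocalin 2, a secreted protein that binds bacterial iron carriers. The Lcn2-/- allele is carried in the whole animal, was made on a mixed background of other strains and was then crossed onto BALB/c, so DNA near Lcn2 may still differ in strain from that of WT. Nothing in the labels ties the samples to separate cages or litters, so p-values measure the spread between these samples.

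Nrf2, the protein made from Nfe2l2, is held by Keap1 in the cytoplasm and broken down under resting conditions. When oxidants or electrophiles modify Keap1, Nrf2 accumulates, pairs with small Maf proteins and binds antioxidant response elements near its target genes. The targets make and recycle glutathione, run the thioredoxin system, reduce quinones, break down heme and supply NADPH. In liver they are known as defences against reactive drug metabolites. Nrf2 is controlled mainly at the level of its protein, which arrays do not measure.

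An antioxidant response element has a core of TGAC or TGAG, any 3 bases, and GC, and start-site windows of 7 members were held in the RefSeq table (build GRCm38.p6, 300 bases each, 250 before a start and 50 after it). Hmox1, Gclc and Gsr had no entry. The search, on both strands, first used TGACNNNGC, which was found for 5 of the 7 members and for 14.0% of all 27025 genes with a window. TGAGNNNGC was added after that result had been seen. With either form accepted, 6 of the 7 members had a match, against 30.8% of all genes, and 27.8% of all 32851 windows of this length held one. Nqo1 had no match in its window. The windows of the pair of members that rose in WT, Me1 and Nfe2l2, and of Srxn1, which had the most matches, are printed 5′ to 3′ on the gene's strand, with the matched letters in capitals. They lie at chr9:86695865-86696164 (minus strand), chr2:75704614-75704913 (minus strand) and chr2:152105274-152105573 (plus strand).
Me1: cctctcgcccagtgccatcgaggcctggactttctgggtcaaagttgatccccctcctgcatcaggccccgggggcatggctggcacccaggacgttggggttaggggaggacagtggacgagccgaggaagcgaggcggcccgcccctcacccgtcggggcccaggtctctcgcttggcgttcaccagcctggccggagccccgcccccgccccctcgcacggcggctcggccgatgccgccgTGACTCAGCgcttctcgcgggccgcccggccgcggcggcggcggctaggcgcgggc
Nfe2l2: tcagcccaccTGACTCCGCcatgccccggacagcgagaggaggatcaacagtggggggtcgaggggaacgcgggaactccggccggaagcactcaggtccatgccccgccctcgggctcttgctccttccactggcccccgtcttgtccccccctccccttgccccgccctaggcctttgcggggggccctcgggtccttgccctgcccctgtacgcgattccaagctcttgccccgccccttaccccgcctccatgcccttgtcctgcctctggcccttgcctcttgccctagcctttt
Srxn1: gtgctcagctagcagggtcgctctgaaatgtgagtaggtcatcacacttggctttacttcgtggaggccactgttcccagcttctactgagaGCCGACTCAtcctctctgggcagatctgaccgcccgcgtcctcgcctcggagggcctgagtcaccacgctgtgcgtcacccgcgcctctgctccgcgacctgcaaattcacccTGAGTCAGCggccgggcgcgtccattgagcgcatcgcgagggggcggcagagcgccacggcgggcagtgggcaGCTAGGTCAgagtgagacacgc
Me1 had a second window, at chr9:86687228-86687527, with no match. In the Me1 window printed here TGACTCAGC began 6 bases before the start, and these letters also hold an AP-1 motif, TGANTCA. In the Nfe2l2 window TGACTCCGC began 240 bases before the start. Srxn1 had 3 matches, of which TGAGTCAGC, 45 bases before the start, also holds the AP-1 letters. Single matches were TGACGGTGC for Gclm, TGAGAAAGC for Slc7a11 and TGACAAAGC for Txnrd1, the last in 1 of its 3 windows. A match describes letters in the window and was not tested as a binding site.

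Several features of the arrays bear on what follows. The log2 difference of Lcn2, Lcn2-/- minus WT, was -3.33 under CCl4 (limma adjusted p = 0.0394) and -4.15 in controls (adjusted p = 0.0215), with no overlap of the groups, although its probe was well above background on all 16 arrays. WT control replicate 3 and Lcn2-/- control replicate 3 stood nearest the CCl4 arrays of their genotype on the first principal component, which held 40.14% of the variance. All controls and WT CCl4 replicate 1 were on 1 slide and all other CCl4 arrays on the second slide. A slide block therefore rests on WT CCl4 replicate 1 set against the other WT CCl4 arrays, in both genotypes. Apart from WT CCl4 replicate 1, WT arrays lay in the upper tier and Lcn2-/- arrays in the lower tier of the slides, so genotype and tier cannot be told apart. Hepatocyte markers, listed with earlier results known, were bright throughout, with a mean log2 signal per array between 17.68 and 18.32, and 0 of 6 passed the test in either CCl4 response. Whole liver RNA was used, so fewer cells of a type and less RNA per cell cannot be told apart. In the CCl4 responses, 7 of 7 stellate cell and fibroblast markers rose in WT and 6 of 7 in Lcn2-/-, and 3 of 6 pericentral hepatocyte markers fell in each genotype.

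CCl4 raised 2 of the 9 tested members in WT, Nfe2l2 and Me1, and lowered none, as read from the brightest probe of each. That count was 1 with no filter on dim probes and with slide as a fixed block. It was also 1 in 8 of the 16 fits with 1 array left out, and Nfe2l2 was the member lost. In the same comparison 16.7% of all genes passed the test, 8.05% upwards and 8.63% downwards. In Lcn2-/- mice 0 of the 9 members passed, where 12.1% of all genes did (6.56% upwards and 5.58% downwards); 1 of the 9 had an unadjusted p under 0.05, beside 27.0% of all genes. Over all genes the WT share was 10.2% without WT control replicate 1 and 10.5% without WT control replicate 2, and the Lcn2-/- share 6.92% and 6.90% without Lcn2-/- control replicate 1 or 2. The test was limma over all 4 groups, with p-values adjusted over all genes and called below 0.05. The median log2 difference of the 9 members was -0.18 in WT and 0.03 in Lcn2-/-, beside -0.03 and -0.02 over all genes. In WT, 6 of the 9 members had a 95% interval that lay wholly within a 2-fold change in either direction, and in Lcn2-/- 8 of 9 did.

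**Figure D1:**
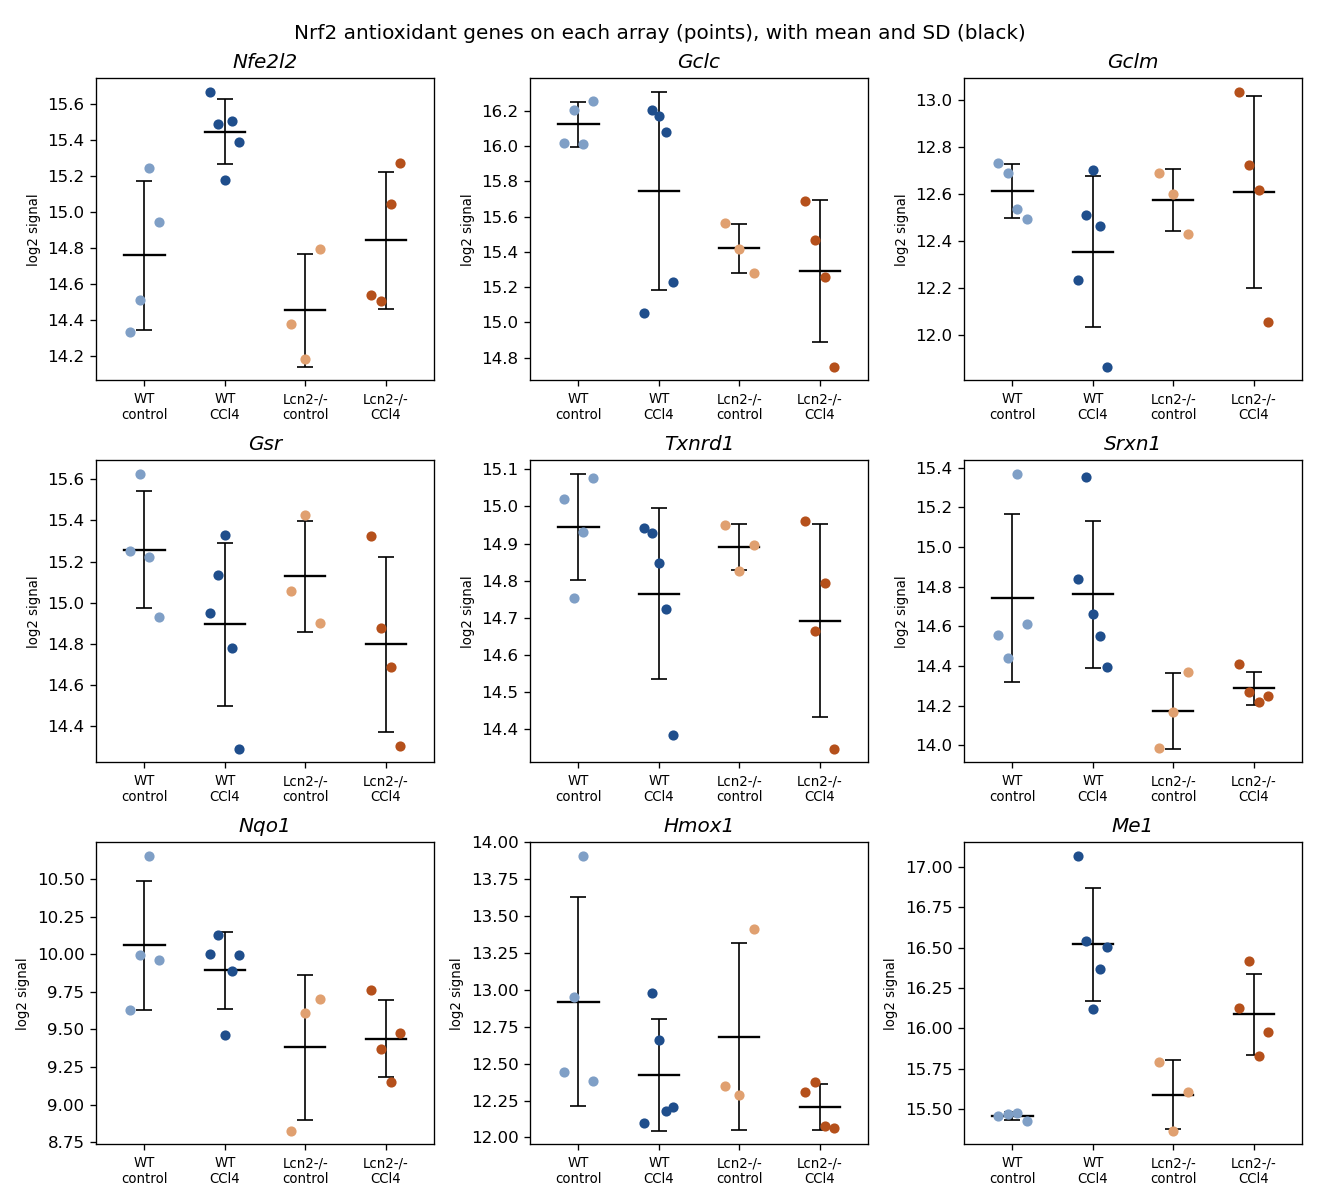
Log2 signal (vertical axes, quantile normalized) of the 9 tested members on each array, by group (horizontal axes). Points are arrays, long bars are group means and error bars are SDs. Me1 lies between 16.12 and 17.07 in WT CCl4, above all 4 WT controls at 15.42 to 15.48, while the 8 other members overlap between control and CCl4 in both genotypes. Of all genes tested, 17.4% in WT and 24.8% in Lcn2-/- had no such overlap.

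The gene for the regulator itself, Nfe2l2 (probe at chr2:75513771-75513830, mm9), was at log2 signals of 14.33, 14.51, 15.25 and 14.95 in the WT controls. It was at 15.66, 15.49, 15.18, 15.51 and 15.39 in WT CCl4. Lcn2-/- controls were at 14.38, 14.19 and 14.80 and Lcn2-/- CCl4 at 14.54, 14.51, 15.05 and 15.27. The CCl4 arrays of WT were high as a group, and of the WT controls only replicate 3, the one nearest the CCl4 arrays, reached into their range. Lcn2-/- CCl4 replicate 4 also lay in it. The log2 difference was 0.68 in WT (SE 0.211, limma adjusted p = 0.0387) and 0.39 in Lcn2-/- (adjusted p = 0.322, 95% interval -0.13 to 0.90). This call did not hold in 8 of the 16 fits with 1 array left out, namely those without WT control replicates 1, 2 or 4, Lcn2-/- control replicate 1, or WT CCl4 replicates 1, 2, 4 or 5. Over all 16, adjusted p lay between 0.0114 and 0.143, and the log2 difference between 0.54 and 0.85. Nor did the call hold with scaling to the 75th percentile (0.51, adjusted p = 0.133) or with no filter on dim probes (0.68, adjusted p = 0.0565). With slide as a fixed block it did not hold either (0.90, adjusted p = 0.171). Without WT control replicate 3 and Lcn2-/- control replicate 3 the difference was 0.85 (adjusted p = 0.0088). The slide block rests on WT CCl4 replicate 1, the single CCl4 array on the slide that holds the controls. That array, at 15.66, was above all 4 WT controls, so it and the block value are not separate observations. The genes whose signal was most like that of Nfe2l2 over the 16 arrays were Cxadr (r = 0.9417), Fundc1 (r = 0.9361) and 2610524H06Rik (r = 0.9336).

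The glutathione members did not pass in either genotype. Gclc and Gclm encode the catalytic and modifier subunits of glutamate-cysteine ligase, which makes the first bond of glutathione. Gsr encodes the reductase that returns oxidised glutathione to its reduced form, and Slc7a11 the transporter that brings in cystine. Gclc (chr9:77641296-77641355, mm9) was at 16.02, 16.20, 16.01 and 16.26 in WT controls and at 15.05, 16.21, 16.17, 16.08 and 15.23 in WT CCl4. The WT CCl4 arrays thus fell apart into 3 at the level of the controls and 2, replicates 1 and 5, well under it. In Lcn2-/- mice Gclc was at 15.56, 15.42 and 15.28 in controls and at 15.69, 15.47, 15.26 and 14.75 under CCl4. The CCl4 response of Gclc was -0.38 in WT (limma adjusted p = 0.335, 95% interval -0.91 to 0.16) and -0.13 in Lcn2-/- (adjusted p = 0.813). With scaling to the 75th percentile, which moved the median of all genes to -0.16 in WT, it was -0.60 and passed (adjusted p = 0.0479).

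Gclm (chr3:121962174-121964809, mm9, as the files give it) ranged from 12.49 to 12.73 in WT controls, 11.86 to 12.70 in WT CCl4, 12.43 to 12.69 in Lcn2-/- controls and 12.05 to 13.03 in Lcn2-/- CCl4. The groups overlapped, and the spread was larger under CCl4 (SD 0.32 and 0.41) than in controls (SD 0.11 and 0.13), a difference that was not tested. The log2 differences were -0.26 in WT (95% interval -0.66 to 0.15) and 0.03 in Lcn2-/- (95% interval -0.43 to 0.49). Gsr (chr8:34808488-34808547, mm9) gave -0.36 in WT and -0.33 in Lcn2-/- (limma adjusted p = 0.317 and 0.456), and its second probe gave -0.51 and -0.36 with no call. The Slc7a11 probe (chr3:50169700-50169759, mm9) was not well above background on any of the 16 arrays, at 2.88 to 3.64, and has no fold.

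The thioredoxin members did not pass either. Txnrd1 encodes the reductase that keeps thioredoxin reduced, and Srxn1 encodes sulfiredoxin, which repairs over-oxidised peroxiredoxins. Txnrd1 (chr10:82360230-82360289, mm9) had the narrowest interval of the 9 members in both CCl4 responses, with a difference of -0.18 in WT (95% interval -0.48 to 0.12) and -0.20 in Lcn2-/- (95% interval -0.54 to 0.14). Srxn1 (chr2:151937009-151937068, mm9) was at 14.56, 14.44, 15.37 and 14.61 in WT controls and at 14.84, 15.36, 14.66, 14.55 and 14.40 in WT CCl4. These groups covered nearly the same range, and the difference was 0.02 (95% interval -0.42 to 0.45). In Lcn2-/- mice it was at 13.99, 14.17 and 14.37 in controls and 14.41, 14.27, 14.22 and 14.25 under CCl4, a difference of 0.11 (95% interval -0.39 to 0.61).

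Of the members that encode enzymes for quinones, heme and NADPH, only Me1 rose in WT, and none passed in Lcn2-/- in the main fit. Me1 encodes malic enzyme 1, which makes NADPH in the cytosol while turning malate into pyruvate, and which serves fatty acid synthesis as well as antioxidant defence. Me1 (chr9:86475077-86475136, mm9) was at 15.45, 15.47, 15.48 and 15.42 in WT controls and at 17.07, 16.54, 16.12, 16.37 and 16.50 in WT CCl4. In Lcn2-/- mice it was at 15.79, 15.36 and 15.60 in controls and at 16.13, 16.41, 15.83 and 15.98 under CCl4. Every CCl4 array was above every control of its genotype. Over all genes, control and CCl4 arrays did not overlap for 17.4% in WT and 24.8% in Lcn2-/-. The rise was 2.09-fold in WT, a log2 difference of 1.06 (SE 0.169, limma adjusted p = 0.00061), and the difference in Lcn2-/- was 0.50 (SE 0.193, adjusted p = 0.109, 95% interval 0.09 to 0.91). The WT call held in all 16 fits that left out 1 array (0.93 to 1.16) and under the 12 other settings (0.84 to 1.61). Both other Me1 probes rose in WT, by 1.18 (limma adjusted p over all probes = 0.000958) and 1.05 (adjusted p = 0.0124), and gave 0.68 and 0.58 in Lcn2-/- with no call. With slide as a fixed block the Lcn2-/- difference was 1.18 and passed (adjusted p = 0.0437), and it also passed without WT CCl4 replicate 1 (0.50, adjusted p = 0.0497). The slide block rests on WT CCl4 replicate 1, the single CCl4 array on the slide that holds the controls. That array was the brightest of all for Me1, at 17.07. The block values of Me1 in WT and in Lcn2-/- therefore carry this 1 WT array.

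Genes of lipid synthesis were followed beside Me1. Of 7 listed lipogenesis genes, 6 rose in WT and 3 in Lcn2-/-, where 8.05% and 6.56% of all genes rose. The mean log2 signal of the 7 was 14.13 to 14.92 in WT controls and 15.95 to 16.56 in WT CCl4. It was 14.43 to 15.50 in Lcn2-/- controls and 15.62 to 16.42 in Lcn2-/- CCl4. The gene most like Me1 over the 16 arrays was one of them, Acly (r = 0.957), which encodes the enzyme that supplies acetyl-CoA in the cytosol, followed by Gm5341 (r = 0.9463) and Tars2 (r = 0.9276). In WT, Acly rose by 1.43 (limma adjusted p = 0.00104); it had a difference of 0.60 in Lcn2-/- (adjusted p = 0.181). Their part in the Me1 result was not tested.

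Nqo1, which encodes the quinone reductase often read as an index of Nrf2 activity, was at 9.63, 9.99, 10.65 and 9.96 in WT controls and at 10.00, 10.13, 9.46, 9.89 and 9.99 in WT CCl4 (probe at chr8:109912440-109912499, mm9). It was at 8.83, 9.61 and 9.70 in Lcn2-/- controls and 9.77, 9.37, 9.15 and 9.47 in Lcn2-/- CCl4. The groups overlapped within each genotype, and the CCl4 responses were -0.16 in WT (95% interval -0.65 to 0.32) and 0.06 in Lcn2-/- (95% interval -0.49 to 0.61). Hmox1, which encodes the inducible enzyme that opens the heme ring, was at 12.44, 12.96, 13.91 and 12.38 in WT controls and at 12.10, 12.98, 12.66, 12.18 and 12.21 in WT CCl4 (chr8:77624207-77624266, mm9). In Lcn2-/- mice it was at 12.35, 12.29 and 13.41 in controls and 12.31, 12.37, 12.08 and 12.07 under CCl4. The highest array in each control group was replicate 3, at 13.91 and 13.41. The Hmox1 responses were -0.50 in WT (limma adjusted p = 0.309, 95% interval -1.17 to 0.17) and -0.48 in Lcn2-/- (adjusted p = 0.418). The second Hmox1 probe (chr8:77620797-77620856, mm9) gave -0.66 in WT and passed (limma adjusted p over all probes = 0.0221), with every WT CCl4 array, at 8.69 to 9.24, below every WT control, at 9.32 to 9.95, so the probes differ in call but not in direction. Macrophage marker signal was also highest among controls in both replicates 3, at 13.22 against 11.42 to 12.11 in the other WT controls and 12.29 against 11.10 and 11.30 in the other Lcn2-/- controls. Of 10 macrophage and Kupffer cell markers, 3 rose and 1 fell in WT CCl4 and 3 rose in Lcn2-/- CCl4, with mean signals of 12.71 to 13.42 and 12.59 to 13.28. Neutrophil markers showed the same in controls, at 11.11 against 9.28 to 9.91 in WT and 11.81 against 8.92 and 9.18 in Lcn2-/-, and 3 of 6 rose in WT CCl4 and 1 of 6 in Lcn2-/- CCl4, with mean signals of 11.27 to 11.84 and 10.81 to 11.38. The part of either list in the Hmox1 values was not tested.

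Between genotypes, no member passed. Under CCl4 0 of the 9 members passed where 0.649% of all genes did, and in controls 0 of 9 where 0.517% did; 3 members in each had an unadjusted p under 0.05, as did 13.7% and 8.32% of all genes. The median member difference, Lcn2-/- minus WT, was -0.43 under CCl4 and -0.24 in controls, beside -0.005 and -0.01 over all genes. In each, 8 of the 9 members were negative, beside 50.9% and 52.7% of all genes. The sign of the members nearest 0 was not settled. Under CCl4 the second probes of Gsr and Hmox1 gave 0.02 and 0.04, and with 1 array left out Gsr reached 0.07 and Txnrd1 0.04 (both without Lcn2-/- CCl4 replicate 4). In controls Hmox1 was 0.09 without WT control replicate 3, and Gclm reached 0.03 without Lcn2-/- control replicate 3. For both genes the Lcn2-/- array was the lower in every pair of controls with the same replicate number. With scaling to the 75th percentile Gsr was positive under CCl4 and Txnrd1 in both comparisons. In controls, Gclc was -0.70 (95% interval -1.31 to -0.09, limma adjusted p = 0.476), Nqo1 -0.68 (95% interval -1.23 to -0.13, adjusted p = 0.421) and Srxn1 -0.57 (95% interval -1.07 to -0.07, adjusted p = 0.485). For Gclc and Srxn1 all 3 Lcn2-/- controls were below all 4 WT controls, while Nqo1 overlapped; 9.74% of all genes had no overlap there. Under CCl4, Nfe2l2 was -0.60 (95% interval -1.05 to -0.15, adjusted p = 0.239), Srxn1 -0.47 (adjusted p = 0.333) and Me1 -0.43 (adjusted p = 0.292), and all 9 members overlapped between the genotypes, where 5.66% of all genes did not. Nfe2l2 and Srxn1 lie on chromosome 2, as does Lcn2, but at other positions. The probes are at chr2:75513771-75513830 for Nfe2l2, chr2:151937009-151937068 for Srxn1 and chr2:32240199-32240258 for Lcn2 (mm9). Whether DNA of another strain reaches either gene was not tested. The CCl4 responses of WT and Lcn2-/- were compared directly by the interaction, in which 0 of 9 members passed where 0.0534% of all genes did. The interaction of Me1, the Lcn2-/- response minus the WT response, was -0.56 (95% interval -1.11 to -0.02, unadjusted p from limma = 0.0447, adjusted p = 1), and that of Nfe2l2 was -0.30 (95% interval -0.98 to 0.39).

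**Figure D2:**
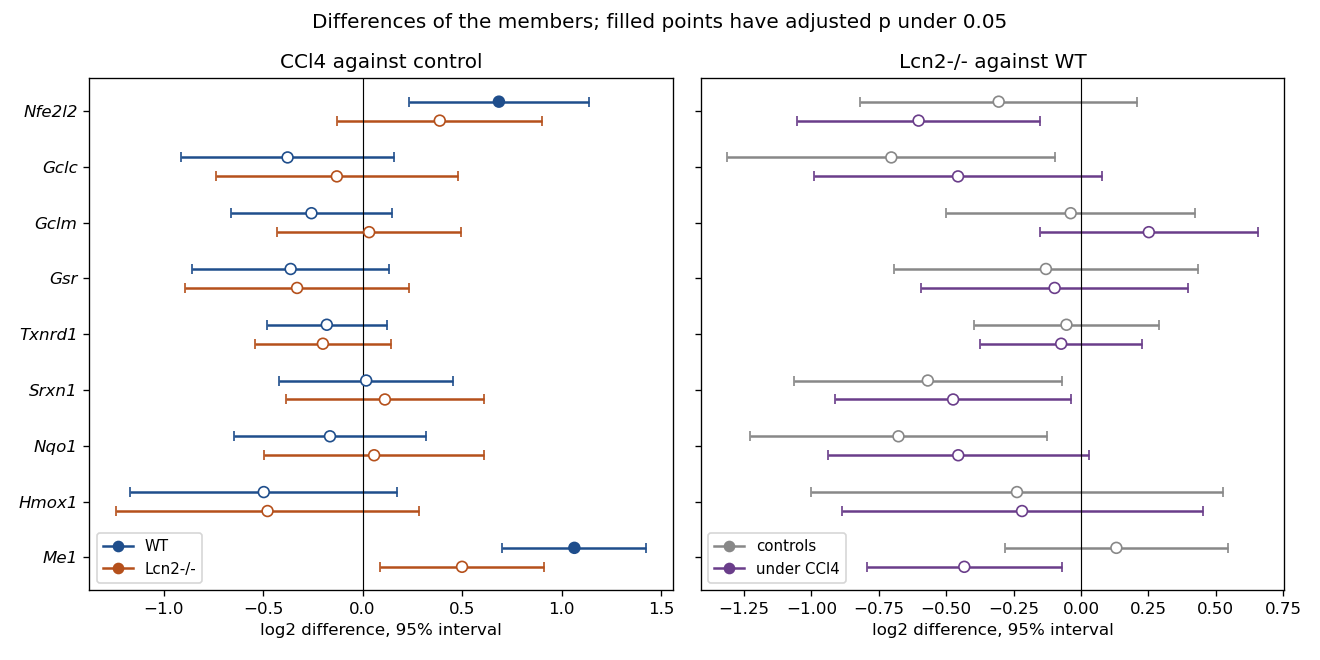
Log2 differences (horizontal axes) of the 9 tested members with 95% intervals from limma, for CCl4 against control in each genotype (left) and Lcn2-/- against WT in each treatment (right). Filled points have adjusted p under 0.05, which holds for Nfe2l2 and Me1 in WT, and all points on the right are open.

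The members did not vary as 1 block from array to array. After each group's mean was taken out, the median r over the 36 pairs of tested members was 0.147, with a range from -0.603 to 0.865. These values describe 16 arrays that share their normalization. The highest were between glutathione genes, 0.865 for Gclm and Gsr and 0.824 for Gclc and Gclm. Gclm and Txnrd1 gave 0.728, but 0.0783 without WT CCl4 replicate 5 and Lcn2-/- CCl4 replicate 4, a pair picked after their values were seen, which were the lowest of their groups for Gclm, Gsr and Txnrd1 and were both in column 4 of the same slide. Without the same arrays Gclm and Gsr gave 0.725. Srxn1 and Hmox1 gave 0.757, and 0.523 without both control replicates 3. Nfe2l2 ran opposite to the glutathione genes, at -0.603 with Gclm and -0.573 with Gsr.

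The wider Nrf2 pathway was taken as 66 further genes in 8 sub-lists, of which 64 were tested (Ggt1 and Ugdh were not). In WT 13 of the 64 passed (20.3%, beside 16.7% of all genes), 7 upwards and 6 downwards, and in Lcn2-/- 5 of 64 (7.81%, beside 12.1%), 3 upwards and 2 downwards. The WT count was 7 (10.9%) without WT control replicate 1 and 8 (12.5%) without WT control replicate 2, where 10.2% and 10.5% of all genes passed. The Lcn2-/- count was 0 without Lcn2-/- control replicate 1, 1 without Lcn2-/- control replicate 2 or Lcn2-/- CCl4 replicate 1, 2 without Lcn2-/- CCl4 replicate 2 or 4, 3 without Lcn2-/- CCl4 replicate 3, WT control replicate 1 or WT CCl4 replicate 4, and 8 without WT control replicate 3. In these fits 6.90% to 13.1% of all genes passed. With slide as a fixed block 4 of the 64 passed in WT and 1 in Lcn2-/-, where 1295 and 426 of all genes passed. Most of the calls named below therefore ended under this block. The median differences of the 64 genes were -0.02 and -0.01, beside -0.03 and -0.02 for all genes. In the comparisons of genotypes and the interaction 0 of 64 passed.

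Of 5 pentose phosphate and NADPH genes 3 rose in WT: Pgd by 0.86 (limma adjusted p = 0.0293), Tkt by 0.42 (adjusted p = 0.018) and Taldo1 by 0.28 (adjusted p = 0.0255), which encode 6-phosphogluconate dehydrogenase, transketolase and transaldolase. Taldo1 also rose in Lcn2-/-, by 0.33 (adjusted p = 0.0302). Enzymes for quinones, carbonyls and epoxides moved both ways in WT, with 3 of 8 up and 2 of 8 down. Ptgr1, which reduces reactive aldehydes, rose by 1.10 (adjusted p = 0.00486) and Cbr3, a carbonyl reductase, by 1.07 (adjusted p = 0.0162). Osgin1, an oxidative stress-responsive growth inhibitor, fell by 1.21 (adjusted p = 0.000143) and Aox1, aldehyde oxidase, fell by 0.90 (adjusted p = 0.00439). In Lcn2-/- 1 of the 8 passed, Ephx1, which encodes microsomal epoxide hydrolase and is named after its values were seen, with a rise of 0.47 (adjusted p = 0.0314). Osgin1 there had a difference of -0.11 (adjusted p = 0.738), and its interaction of 1.10 did not pass (adjusted p = 0.397).

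Among efflux transporters, 1 of 5 rose and 2 fell in WT. Abcc3, which exports conjugated bile acids and drugs from hepatocytes into blood, fell in both genotypes, by 1.42 in WT (adjusted p = 0.000368, limma) and 0.79 in Lcn2-/- (adjusted p = 0.046). Abcc4 rose by 0.79 in WT (adjusted p = 0.0366) and Abcg2 fell by 0.41 (adjusted p = 0.0138). Of 9 regulators of Nrf2, Bach1, the repressor that competes for the same DNA elements, fell by 0.49 in WT (adjusted p = 0.0143). In Lcn2-/- Cul3, part of the ligase that marks Nrf2 for breakdown, rose by 0.48 (adjusted p = 0.0349), and Mafg, a small Maf partner, fell by 0.53 (adjusted p = 0.0407). No Lcn2-/- call of a pathway gene named here or in the paragraph above held without Lcn2-/- control replicate 1. Keap1, named here for its role and after its values were seen, gave -0.20 in WT and -0.17 in Lcn2-/- (adjusted p = 0.476 and 0.632). Prdx5, a peroxiredoxin, fell by 0.38 in WT (adjusted p = 0.0317), as 1 of 11 thioredoxin and peroxiredoxin genes. The other sub-lists had no call in either genotype, with 0 of 16 glutathione enzymes, 0 of 6 heme and iron genes and 0 of 4 superoxide and peroxide genes.

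**Figure D3:**
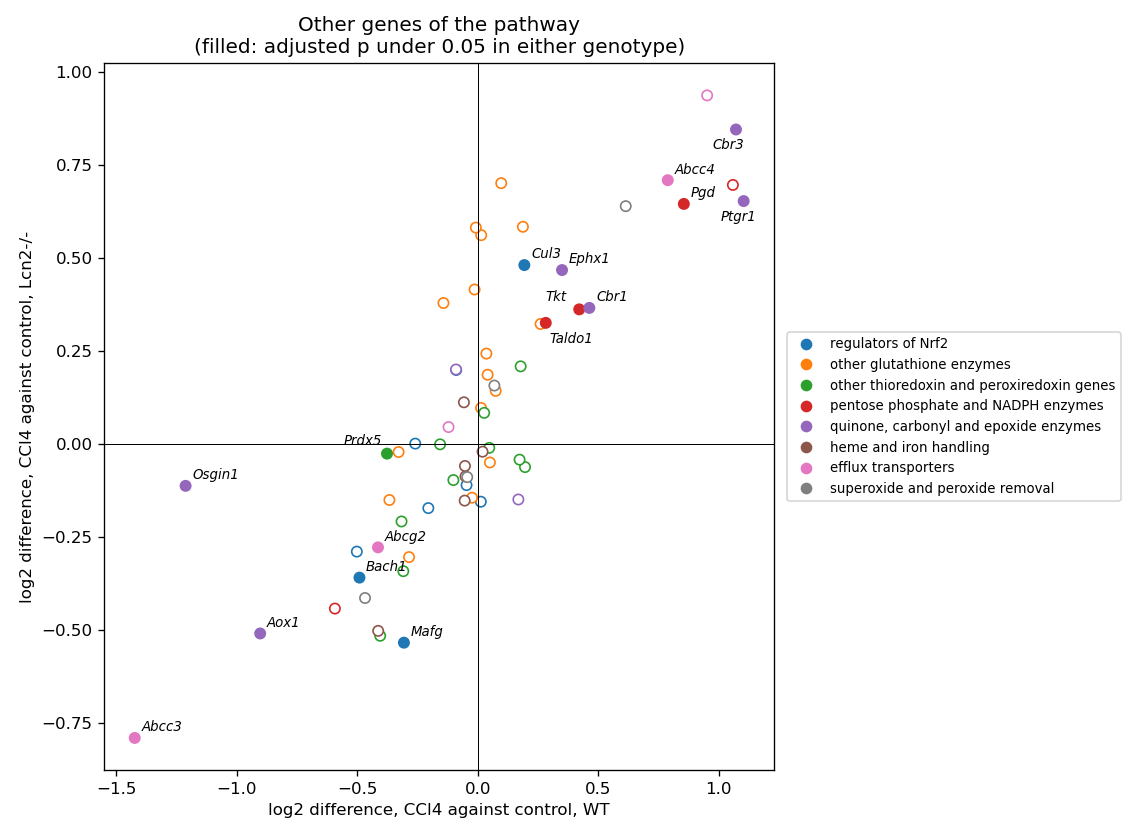
Log2 difference of CCl4 against control in WT (horizontal axis) and in Lcn2-/- (vertical axis) for the 64 tested pathway genes, coloured by sub-list. Filled and named points passed in at least 1 genotype, with Abcc3 lowest in both (-1.42 and -0.79) and Osgin1 at -1.21 in WT and -0.11 in Lcn2-/-.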

How the data were processed

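RNA from 16 mouse livers was labelled with Cy3 and hybridised to Agilent SurePrint G3 arrays. The authors deposited each array's scanner output, whose processed signal is a linear intensity after the image software's own background subtraction, and a table of log2 values that the authors had quantile normalized. The 3671 control spots and spots marked as outliers were left out, and the log2 intensities of the remaining 59305 gene spots were brought to a common distribution by quantile normalization. Spots of a probe were averaged (55681 probes, 121 dropped). Probes detected above background on 3 or more arrays (33022) were kept, and the brightest was taken per symbol. Per array, 51.6% to 60.9% of spots were well above background, the 75th percentile of intensity was 842.3 to 2067, and 0 gene spots were saturated. The number of arrays limits the precision.

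limma 3.58.1 (R 4.3.3) was fitted to all 4 groups, with Benjamini-Hochberg adjustment within each contrast and a threshold of 0.05. Groups came from sample titles. The fit was tested on simulated data. Members and lists were chosen with earlier results of these data known. Named pathway genes are up to 4 per sub-list, the largest differences that passed in a CCl4 response, then any that passed between genotypes. The 3 most alike genes are named for members that passed. Probe positions are as the files give them (mm9), and whether they lie in an exon or UTR was not analysed here. RefSeq windows use GRCm38.p6. Replicate numbers deviated together in the controls of both genotypes (r = 0.233, 0.368 and 0.552), which by the rule used pairs them, and not in the other group pairs. Those control pairs also shared a slide column. CCl4 arrays that shared a column of the second slide under different numbers deviated together too (r = 0.162, 0.219, 0.137 and 0.64), so number and column cannot be told apart in the controls. Among controls with different numbers r reached 0.302 and 0.121, with all others at 0.0991 or lower. Between genotypes on the second slide, CCl4 arrays in different columns reached 0.252 and 0.202, with all others at 0.089 or lower. Alternatives were scaling, background correction, the deposited table, filters, slide, slide column and replicate blocks, array weights, the mean of a gene's probes, and leaving out each array. Leaving out both control replicates 3 was added after the data were seen.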

Additional observations from a re-analysis of the deposited data

How the results depend on the processing

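Me1 kept its call in WT under all 28 alternatives run. Over the 45 member differences and their alternatives, 1204 of 1278 values kept direction and side of the threshold, 11 lost the call, 3 gained it and 60 changed sign. The 60 values belonged to 16 differences, and 0 of them passed the threshold before or after the change. Members called in WT numbered 1 with no filter on dim probes and 1 with slide as a fixed block, and 1 to 2 when single arrays were left out. In Lcn2-/- they numbered 1 with slide as a fixed block, which rests on WT CCl4 replicate 1, and 0 to 1 when single arrays were left out. Pathway genes called in WT numbered 23 with scaling to the 75th percentile, 4 with slide as a fixed block, 21 with array weights and 7 to 16 when single arrays were left out. In Lcn2-/- they numbered 8 with scaling to the 75th percentile, 1 with slide as a fixed block, 18 with array weights, 3 with the mean of a gene's probes, 8 without both control replicates 3, and 0 to 8 when single arrays were left out. In controls 2 passed with array weights. The cause was not tested.

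Of all genes tested, in WT 1295 passed with slide as a fixed block and 7007 with array weights, and in Lcn2-/- 426 and 6970. Between genotypes under CCl4, 87 passed with the replicate block, 321 with array weights and 255 without both control replicates 3, with 72 (without Lcn2-/- CCl4 replicate 3) to 191 when single arrays were left out. Leaving out single arrays gave 2485 to 5071 in WT, 1680 to 3194 in Lcn2-/-, 94 to 142 between genotypes in controls and 8 to 15 for the interaction. In controls, 216 passed with no filter, 57 with probes well above background on all arrays and 1252 with array weights. For the interaction, 7 passed with normexp background correction, 3 with the deposited table, 1 with probes well above background on all arrays and 6 with the replicate block. Scaling to the 75th percentile moved the median of all genes to -0.16 in WT and -0.14 in Lcn2-/-, with 30.7% and 36.3% of calls upwards. The replicate block changed no member call. It joined equal replicate numbers over all 4 groups, although they deviated together only in the controls, and a block of the controls alone was not run. No difference is given for Slc7a11, whose probe stayed at background.

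The differences that changed sign are log2 differences of limma fits, and the interaction is the CCl4 response in Lcn2-/- less that in WT. Scaling to the 75th percentile gave -0.12 for the WT response of Srxn1, -0.021 for the Lcn2-/- response of Gclm, 0.0076 for Gsr between genotypes under CCl4, and for Txnrd1 0.038 between genotypes under CCl4, 0.010 in controls and 0.028 for the interaction. The Lcn2-/- response of Nqo1 was -0.047 with normexp background correction and -0.031 with the deposited table, which gave -0.015 for the interaction of Gsr. With slide as a fixed block the Lcn2-/- response was -0.12 for Gclm and 0.020 for Txnrd1, and the interaction was 0.024 for Txnrd1 and -0.063 for Hmox1. Slide column as a block gave 0.021 for the Lcn2-/- response of Gclc, and array weights gave 0.015 for the interaction of Txnrd1. Without both control replicates 3, the WT response of Nqo1 was 0.034, the Lcn2-/- response of Gclm -0.040, Gclm in controls 0.0097, and the interaction -0.069 for Gsr and -0.017 for Srxn1. When single arrays were left out, the WT response ranged from -0.13 to 0.23 for Srxn1 and from -0.31 to 0.034 for Nqo1. The Lcn2-/- response ranged from -0.26 to 0.051 for Gclc, from -0.11 to 0.22 for Gclm and from -0.22 to 0.22 for Nqo1. The genotype difference under CCl4 ranged from -0.27 to 0.067 for Gsr and from -0.17 to 0.041 for Txnrd1, and in controls from -0.097 to 0.034 for Gclm and from -0.60 to 0.091 for Hmox1. The interaction ranged from -0.14 to 0.20 for Gsr, from -0.11 to 0.095 for Txnrd1, from -0.11 to 0.24 for Srxn1, from -0.056 to 0.38 for Nqo1 and from -0.31 to 0.38 for Hmox1. The cause was not tested.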

Other observations

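Srxn1 and Nqo1, singled out after their values were seen, had Lcn2 among the genes most like them over the 16 arrays, with r = 0.9 for Srxn1 and 0.822 for Nqo1. Lcn2 itself is lower in Lcn2-/- mice. Within the 9 WT arrays r was 0.898 and 0.734, within the 7 Lcn2-/- arrays it was 0.737 and 0.633, and after group means were taken out it was 0.877 and 0.674. WT control replicate 3 was the highest of all 16 arrays for Lcn2 (17.57), Srxn1 (15.37) and Nqo1 (10.65), and the highest WT control for the mean of the neutrophil markers (11.11). The part of these markers was not tested. Without both control replicates 3, r after group means was 0.748 for Srxn1 and 0.405 for Nqo1 over 14 arrays.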
